A study of Mus musculus with 5 samples.

Results

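Transcripts of 30 genes of cholesterol and fatty acid synthesis were quantified by RNA-seq of mouse primary melanomas. The genes were taken by name from a table of 23284 genes, and all 30 were in it. They comprise 7 enzymes that lead to farnesyl diphosphate, 9 enzymes of squalene and sterol formation, 5 regulators and carriers, 7 enzymes of fatty acid synthesis and desaturation, and 2 sterol exporters. The B16F1-CXCL5 tumors (n = 2 libraries) grew from B16F1 cells that overexpress the chemokine CXCL5, and the B16F1 tumors (n = 3 libraries) from B16F1 cells, a melanoma line of C57BL/6 origin. Both kinds of cells were injected intradermally at the flank of mice of strain C57BL/6 J, both are labelled as untreated, and tumors were taken at 250 to 350 mm³. The promoter that drives CXCL5, whether the cells were 1 clone, and the age of the mice are unstated in the labels. They do not say either that each library came from its own mouse, so p-values measure only the spread between these libraries. The comparison asks how the primary tumor differs when its melanoma cells overexpress CXCL5. Whole tumors were sequenced, so fewer cells of a type and less RNA per cell cannot be told apart.

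Cells make cholesterol from acetyl-CoA through mevalonate, the isoprenoid farnesyl diphosphate, squalene and lanosterol. Fatty acids are built from the same acetyl-CoA, which ATP citrate lyase provides in the cytosol, and are then elongated and desaturated. The transcription factors SREBP-2 and SREBP-1, which SCAP escorts out of the endoplasmic reticulum when sterols are low and INSIG proteins hold back when sterols are high, switch on most of these genes together. Oxysterols activate LXR, which turns on the exporters ABCA1 and ABCG1.

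The values are FPKM, which divide fragments by transcript length and library size. Cxcl5 itself had 83.7 and 85.4 FPKM in B16F1-CXCL5 tumors, against 1.86, 3.62 and 1.01 FPKM in B16F1 tumors, so both B16F1-CXCL5 libraries lay above all B16F1 libraries, in accord with the labels. Its log2 fold change was 4.84 (limma adjusted p = 0.0163). The lowest steps of the values imply that they were divided by library sizes of 26800000 to 28700000 fragments. The scaling of the values is not stated, so these sizes can differ from the depth sequenced. The libraries differed in other tissue. Among the marker lists, B16F1 library 3 had the highest sums of keratinocyte, sebocyte, adipocyte and skeletal muscle genes and the lowest sum of melanocyte lineage genes.

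**Figure D1:**
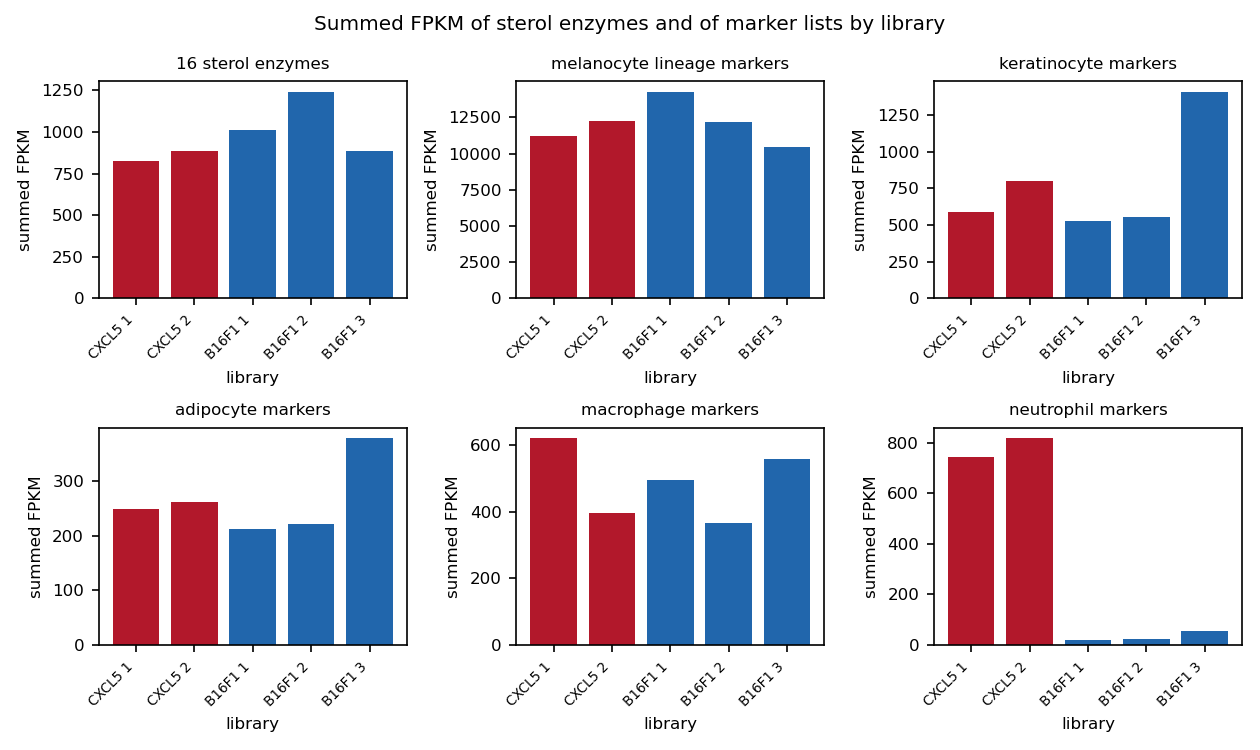
Summed FPKM (vertical axes) in each library (horizontal axes) for the 16 sterol enzymes and for 5 marker lists, with B16F1-CXCL5 libraries (ticks CXCL5 1 and CXCL5 2) in red and B16F1 libraries in blue. The sterol enzymes sum highest in B16F1 library 2, at 1241 FPKM, the keratinocyte markers highest in B16F1 library 3, at 1409 FPKM, and the neutrophil markers are high only in the B16F1-CXCL5 libraries, at 743 and 817 FPKM, against 18.2, 22.2 and 54.9 FPKM in B16F1.

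None of the 30 genes passed the test between the groups, and the differences were small. All 30 reached 1 FPKM in at least 2 libraries and were tested among 12533 genes with limma on log2(FPKM + 1). At an adjusted p under 0.05, 0 rose, against 0.128% of all genes tested, and 0 fell, against 0.00798%. In all, 17 genes of those tested, or 0.136%, were called. The adjusted p-values of the 30 genes lay between 0.483 and 0.991. At an unadjusted p under 0.05, Acat2 and Pmvk were lower, 2 of 30, against 5.39% of all genes lower at that p and 8.97% in either direction. The median log2 fold change of the 30 genes was -0.19, against -0.01 over all genes tested, and 24 of the 30 were negative, against 53.4% of all genes. The 16 enzymes of mevalonate and sterol synthesis were all negative, with a median of -0.23. The 7 enzymes of fatty acid synthesis were mixed, at 4 negative and 3 positive, with a median of -0.11. Both exporters were positive. In 9 genes both B16F1-CXCL5 libraries lay below all 3 B16F1 libraries, against 15.6% of all genes, and in 2 genes both lay above, against 10.8% of all genes. The first count stayed 9 under median of ratios scaling (14.4% of all genes). It was 4 when libraries were scaled to the same sum (10.4% of all genes) and 5 after quantile normalization (13.7%). At the same sum of melanocyte markers it was 2 (2.59%), so it depends on the scaling.

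**Figure D2:**
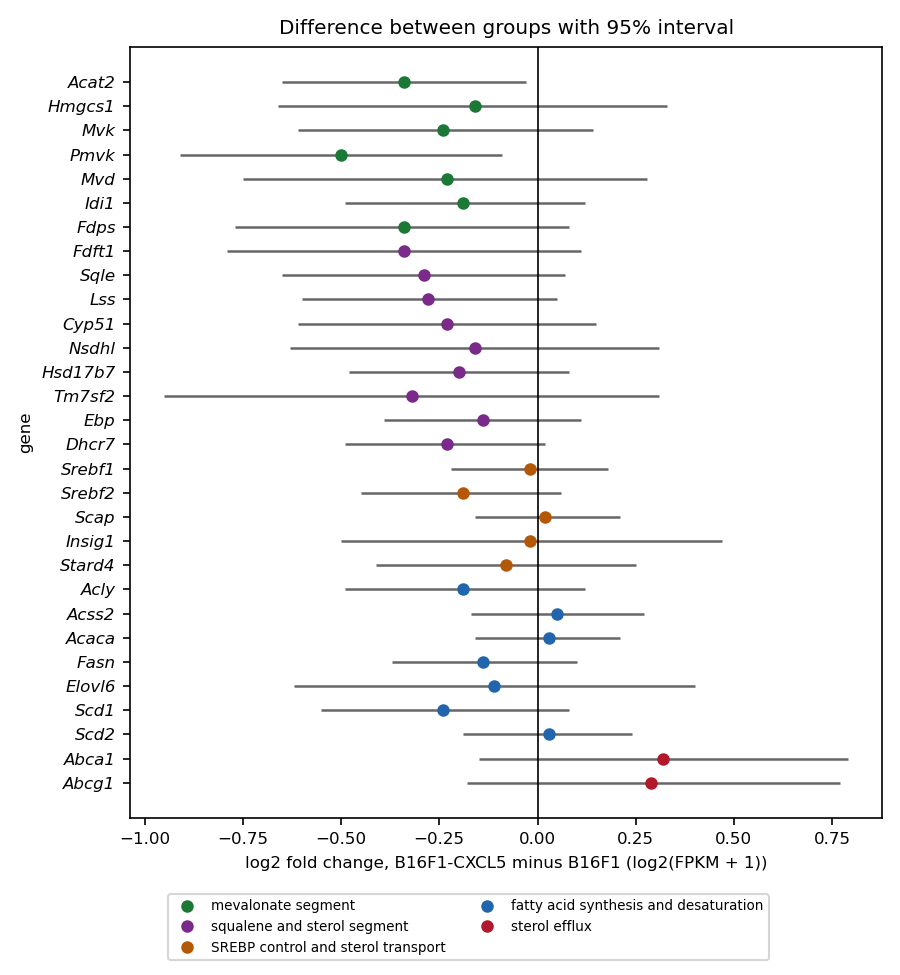
Log2 fold change of each gene, taken as B16F1-CXCL5 minus B16F1 in log2(FPKM + 1) units (horizontal axis), with its 95% interval from limma (lines), for the 30 genes (vertical axis) coloured by role. All 16 points of the mevalonate and sterol enzymes lie left of 0, from -0.50 for Pmvk to -0.14 for Ebp, and the intervals of all genes but Acat2 and Pmvk cross 0.

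The promoters of these genes were searched for short motifs. A RefSeq window (GRCm38.p6) of 250 bases before to 50 bases after an annotated start was matched by symbol for 23 of the 30 genes, in 29 windows; Abcg1, Fdft1, Fdps, Scd1, Scd2, Sqle and Stard4 had none. Both strands were searched for a sterol regulatory element (TCACNCCAC), the NF-Y box (CCAAT), the GC box (GGGCGG) and the E-box (CACGTG). NF-Y is a factor that SREBP is known to work with. The NF-Y box was found in 19 of the 29 windows (65.5%), against 37.4% of 32851 windows of all genes. The GC box was in 22 of the 29 windows, against 35.7% of all windows, and the E-box was in 6, against 7.15%. Windows of the same gene can overlap, as those of Scap do, so a site can be counted more than once. Counted by gene, the NF-Y box was in 18 of 23, the GC box in 19 and the E-box in 5. A share by gene over all genes was not computed. The windows of all genes were not limited to the genes tested here, so they include genes with low or no expression in these tumors. The sterol element in this exact spelling was in 1 window, that of Hmgcs1, against 1.24% of all windows. No matches of different motifs overlapped. A match is a description of the letters and not a mapped binding site. Hmgcs1, Mvk and Nsdhl are shown as sterol genes with at least 4 NF-Y boxes each, and Abca1 as an exporter with none. They were picked for these counts and do not stand for their groups. The windows of Acat2, also a sterol enzyme, and of Acaca, Elovl6 and Scap held no NF-Y box either. That of Acaca, from 84195188 to 84195487 on chromosome 11 (plus strand), lies inside the gene, which begins at 84129672. The start of Acaca at the gene's beginning was thus not searched. The other exporter, Abcg1, had no window. Capitals mark the sterol element and the NF-Y box on either strand (ATTGG is CCAAT read from the other strand). Each is written 5′ to 3′ on the strand of the gene.
Hmgcs1, chr13:119690101-119690400, plus strand: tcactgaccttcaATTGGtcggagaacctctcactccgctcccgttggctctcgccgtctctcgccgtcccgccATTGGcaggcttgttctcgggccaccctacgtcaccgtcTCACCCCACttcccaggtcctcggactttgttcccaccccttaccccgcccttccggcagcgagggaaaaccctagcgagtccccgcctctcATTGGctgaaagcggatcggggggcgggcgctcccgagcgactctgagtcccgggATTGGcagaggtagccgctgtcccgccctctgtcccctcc
Mvk, chr5:114444019-114444318, plus strand: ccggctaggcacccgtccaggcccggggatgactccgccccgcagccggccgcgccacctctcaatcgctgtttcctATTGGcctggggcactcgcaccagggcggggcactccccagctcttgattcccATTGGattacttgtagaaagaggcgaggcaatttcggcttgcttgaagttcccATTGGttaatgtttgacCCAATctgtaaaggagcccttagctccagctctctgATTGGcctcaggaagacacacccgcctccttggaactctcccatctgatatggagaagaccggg
Nsdhl, chrX:72918271-72918570, plus strand: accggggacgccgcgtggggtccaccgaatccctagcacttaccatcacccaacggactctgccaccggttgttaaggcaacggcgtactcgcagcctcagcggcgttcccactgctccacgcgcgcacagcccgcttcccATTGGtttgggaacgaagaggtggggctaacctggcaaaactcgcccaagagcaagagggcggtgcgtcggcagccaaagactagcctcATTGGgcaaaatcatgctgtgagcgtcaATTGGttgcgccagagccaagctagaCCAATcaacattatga
Abca1, chr4:53159846-53160145, minus strand: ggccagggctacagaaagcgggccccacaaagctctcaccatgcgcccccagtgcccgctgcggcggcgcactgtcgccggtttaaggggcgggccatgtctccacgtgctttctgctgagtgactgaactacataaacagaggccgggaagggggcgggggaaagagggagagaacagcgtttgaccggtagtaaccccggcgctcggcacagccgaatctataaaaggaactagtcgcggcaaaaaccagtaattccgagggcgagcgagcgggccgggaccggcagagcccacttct
In the Hmgcs1 window the sterol element begins 137 bases before the start, between NF-Y boxes that begin 176 and 45 bases before it.

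The enzymes up to farnesyl diphosphate were each lower on average in the B16F1-CXCL5 tumors, without a call. Pmvk, phosphomevalonate kinase, on chromosome 3 from 89454541 to 89469013 (GRCm38, plus strand), had 21.2 and 19.9 FPKM in B16F1-CXCL5 tumors, against 23.9, 35.8 and 29.7 FPKM in B16F1 tumors. Both B16F1-CXCL5 values lay below all B16F1 values, and the B16F1 values themselves spread widely. This was the lowest fold of the 30, at 0.688 of the B16F1 mean, with a log2 fold change of -0.50 (95% interval -0.91 to -0.09) and a limma adjusted p of 0.483. Acat2, the cytosolic thiolase that joins acetyl-CoA units, on chromosome 17 from 12942890 to 12960747 (minus strand), had 30.4 and 30.3 FPKM in B16F1-CXCL5 tumors, against 36.1, 45.6 and 35.2 FPKM in B16F1 tumors. Its groups did not overlap either, and it had a log2 fold change of -0.34 (95% interval -0.65 to -0.03) with an adjusted p of 0.514. Of the 50-base windows of its annotated transcripts, 39.1% also occur in its close copy Acat3, so the division of fragments between them is uncertain. Acat3 had 31.8 and 30.8 FPKM in B16F1-CXCL5 tumors, against 37.2, 36.05 and 39.7 FPKM in B16F1 tumors.

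Fdps, farnesyl diphosphate synthase, was the most abundant sterol enzyme, second to Scd2 among the 30 genes. It lies on chromosome 3 from 89093588 to 89101959 (minus strand) and had 253 and 265 FPKM in B16F1-CXCL5 tumors, against 301, 414 and 285 FPKM in B16F1 tumors. The groups did not overlap, yet the distance between B16F1 libraries 2 and 3 was larger than that between B16F1 library 3 and either B16F1-CXCL5 library. Fdps had a log2 fold change of -0.34 (95% interval -0.77 to 0.08) and an adjusted p of 0.646, and the log2 fold change was -0.18 without B16F1 library 2. Mvk, mevalonate kinase, whose promoter above holds 5 NF-Y boxes, had 21.9 and 22.4 FPKM in B16F1-CXCL5 tumors, against 23.7, 32.3 and 23.6 FPKM in B16F1 tumors. Again the groups did not overlap, with B16F1 library 2 apart from the other four. Hmgcs1, the synthase that makes HMG-CoA, had 88.6 and 103 FPKM in B16F1-CXCL5 tumors, against 119, 126 and 81.6 FPKM in B16F1 tumors. Here B16F1 library 3 was the lowest of the 5 and the groups overlapped, with a log2 fold change of -0.16 (95% interval -0.66 to 0.33) that was -0.05 without B16F1 library 2 and -0.36 without B16F1 library 3. Mvd, mevalonate diphosphate decarboxylase, had 29.04 and 30.1 FPKM in B16F1-CXCL5 tumors, against 34.04, 45.9 and 27.3 FPKM in B16F1 tumors. Idi1, isopentenyl diphosphate isomerase, had 48.9 and 48.7 FPKM in B16F1-CXCL5 tumors, against 57.9, 62.7 and 47.8 FPKM in B16F1 tumors. In both, B16F1 library 3 fell below the B16F1-CXCL5 libraries and B16F1 library 2 was the highest.

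The enzymes from squalene onward were also each lower on average in the B16F1-CXCL5 tumors, without a call. Fdft1, squalene synthase, had 29.8 and 35.4 FPKM in B16F1-CXCL5 tumors, against 41.6, 50.8 and 33.6 FPKM in B16F1 tumors. Sqle, the epoxidase that commits squalene to sterols, had 62.3 and 78.2 FPKM in B16F1-CXCL5 tumors, against 90.6, 93.4 and 73.7 FPKM in B16F1 tumors. In both, B16F1-CXCL5 library 1 was the lowest and B16F1 library 2 the highest, and the groups overlapped through B16F1 library 3. Their log2 fold changes were -0.34 and -0.29, with adjusted p-values of 0.669 and 0.651. With 1 library left out, the log2 fold change lay between -0.49 and -0.20 for Fdft1 and between -0.45 and -0.13 for Sqle. Lss, which closes the ring to lanosterol, had 21.2 and 24.9 FPKM in B16F1-CXCL5 tumors, against 26.4, 32.5 and 25.7 FPKM in B16F1 tumors. Its groups did not overlap. Cyp51, the lanosterol demethylase, had 55.6 and 56.2 FPKM in B16F1-CXCL5 tumors, against 63.7, 79.8 and 55.5 FPKM in B16F1 tumors. B16F1 library 3 lay just below both B16F1-CXCL5 libraries.

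Nsdhl and Hsd17b7 remove the methyl groups at carbon 4 together. Nsdhl had 33.7 and 33.3 FPKM in B16F1-CXCL5 tumors, against 37.8, 47.4 and 29.5 FPKM in B16F1 tumors. Hsd17b7 had 8.56 and 10.1 FPKM in B16F1-CXCL5 tumors, against 12.02, 10.3 and 10.2 FPKM in B16F1 tumors, and it alone of the 16 sterol enzymes did not have its highest value in B16F1 library 2. Hsd17b7 was lower in both B16F1-CXCL5 libraries than in any B16F1 library, but B16F1-CXCL5 library 2 lay close to B16F1 libraries 2 and 3. Tm7sf2, a sterol C14 reductase, had 10.9 and 14.4 FPKM in B16F1-CXCL5 tumors, against 16.7, 20.96 and 11.5 FPKM in B16F1 tumors. Its groups overlapped, and its log2 fold change of -0.32 had the widest interval of the 30 genes, from -0.95 to 0.31, and lay between -0.54 and -0.13 with 1 library left out. Ebp, the sterol isomerase, had 47.6 and 47.5 FPKM in B16F1-CXCL5 tumors, against 49.3, 58.9 and 49.6 FPKM in B16F1 tumors. Dhcr7, which catalyses the last reduction to cholesterol, had 63.8 and 64.96 FPKM in B16F1-CXCL5 tumors, against 76.6, 83.8 and 68.2 FPKM in B16F1 tumors. The groups of Ebp and Dhcr7 did not overlap. Dhcr7 had a log2 fold change of -0.23 (95% interval -0.49 to 0.02) and an adjusted p of 0.594, and Ebp had a log2 fold change of -0.14 (95% interval -0.39 to 0.11), or -0.06 without B16F1 library 2.

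The sterol enzymes also varied together inside the B16F1 group. Of the 16 sterol enzymes, 15 had their highest value in B16F1 library 2, against 23.5% of all genes tested. Over all 30 genes, 21 did. The sterol enzymes had a median deviation from their own means over the 5 libraries of -0.20 and -0.11 on the log2(FPKM + 1) scale in the B16F1-CXCL5 libraries and 0.06, 0.37 and -0.08 in B16F1 libraries 1, 2 and 3, while over all genes tested the medians lay between -0.01 and 0.02. Library 3 of B16F1 lay close to the B16F1-CXCL5 libraries and library 2 of B16F1 lay above all the others. Summed over the 16 enzymes, the FPKM was 827 and 884 in the B16F1-CXCL5 libraries, against 1011, 1241 and 888 in the B16F1 libraries. The sums of the 10 melanocyte lineage markers were 11227 and 12267 FPKM in the B16F1-CXCL5 libraries, against 14257, 12209 and 10458 FPKM in the B16F1 libraries. At the same sum of melanocyte markers, an alternative chosen after the data were seen, all 16 enzymes were negative. Their median was -0.18 there, against 0.04 over all genes. In that alternative 2 of the 16 lay lower in both B16F1-CXCL5 libraries than in all B16F1 libraries (2.59% of all genes). In the main test 8 did (15.6% of all genes). The part of melanocyte content in the sterol values was not tested.

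The group difference changed in size with single libraries. Without B16F1 library 2 the median of the 16 enzymes was -0.15, with 15 negative, and that of the 30 genes was -0.09. Without B16F1 library 3, which held the most skin and muscle transcripts, the medians were -0.35 and -0.27, all 16 sterol enzymes lay lower in both B16F1-CXCL5 libraries than in both remaining B16F1 libraries, against 25.1% of all genes, and 12 of the 30 genes had an unadjusted p under 0.05, against 9.82% of all genes, with 0 passing after adjustment. The part of these other tissues in the sterol values was not tested.

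**Figure D3:**
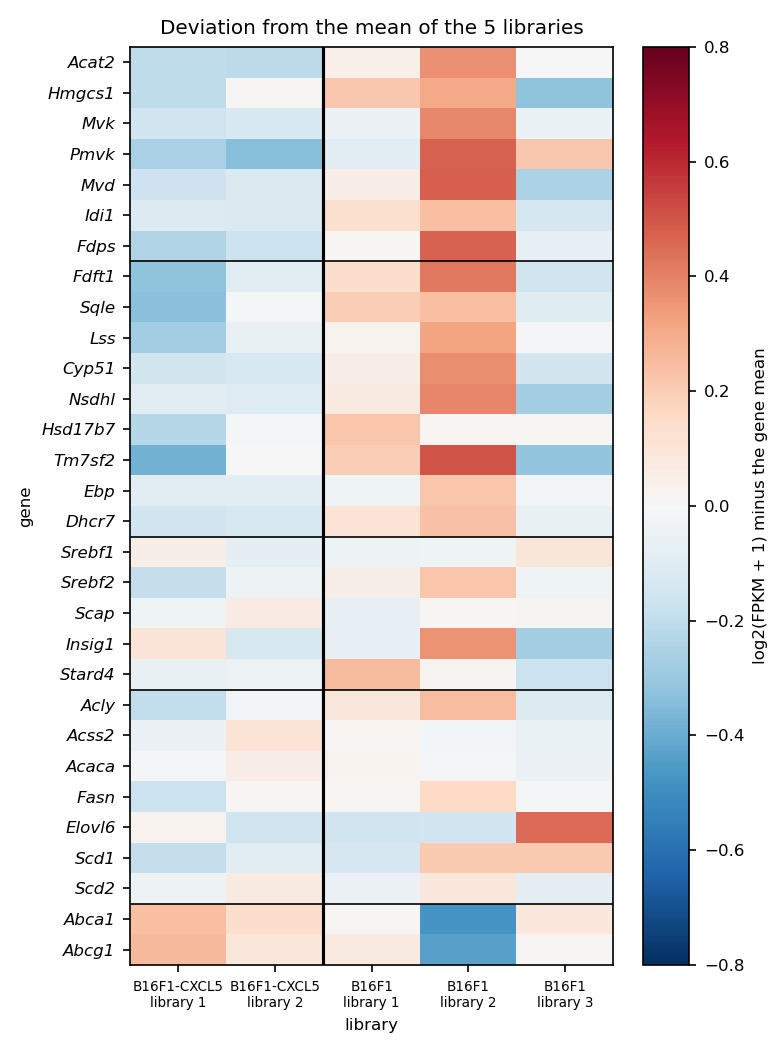
Deviation of each gene (vertical axis) from its own mean over the 5 libraries, on the log2(FPKM + 1) scale (colour), in each library (horizontal axis, B16F1-CXCL5 left of the line). The sterol enzymes other than Hsd17b7 are red in B16F1 library 2, where the median deviation of all 16 is 0.37, and most are blue in the B16F1-CXCL5 libraries, at medians of -0.20 and -0.11, with Hmgcs1, Sqle, Tm7sf2 and Hsd17b7 near 0 in B16F1-CXCL5 library 2, while Abca1 and Abcg1 run the other way.

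Among the regulators, the 2 SREBP genes differed in pattern. Srebf2, which encodes SREBP-2, the main driver of sterol genes, had 73.99 and 82.2 FPKM in B16F1-CXCL5 tumors, against 87.4, 98.8 and 82.5 FPKM in B16F1 tumors. B16F1 library 2 was again the highest, and B16F1-CXCL5 library 2 lay just below B16F1 library 3, so the groups did not overlap, with a log2 fold change of -0.19 (95% interval -0.45 to 0.06) and an adjusted p of 0.669. The log2 fold change of Srebf2 was -0.12 without B16F1 library 2 and also without B16F1-CXCL5 library 1. Srebf1, which encodes SREBP-1, the main driver of fatty acid genes, had 46.1 and 42.5 FPKM in B16F1-CXCL5 tumors, against 43.3, 43.6 and 47.9 FPKM in B16F1 tumors. The groups overlapped, and the interval of its log2 fold change ran from -0.22 to 0.18. Scap, the escort of both, had 40.6 and 43.6 FPKM in B16F1-CXCL5 tumors, against 39.8, 42.1 and 42.3 FPKM in B16F1 tumors, and its interval ran from -0.16 to 0.21.

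Insig1, the sterol-responsive retention protein, was the third most abundant of the 30 genes. It had 145 and 123 FPKM in B16F1-CXCL5 tumors, against 128, 173 and 111 FPKM in B16F1 tumors. The spread within B16F1 covered both B16F1-CXCL5 values, and its log2 fold change was -0.02, or 0.16 without B16F1 library 2. Stard4, a cytosolic sterol carrier, had 19.2 and 19.5 FPKM in B16F1-CXCL5 tumors, against 24.1, 20.4 and 17.7 FPKM in B16F1 tumors, with the groups overlapping. For these 5 genes the median log2 fold change was -0.02.

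The fatty acid genes had no common direction, and none of the 7 had groups that did not overlap. Acly, ATP citrate lyase, had 111 and 125 FPKM in B16F1-CXCL5 tumors, against 136, 151 and 118 FPKM in B16F1 tumors. Fasn, fatty acid synthase, had 58.6 and 66.7 FPKM in B16F1-CXCL5 tumors, against 66.8, 73.9 and 65.8 FPKM in B16F1 tumors. Each overlapped between the groups by 1 library, with a log2 fold change of -0.19 (95% interval -0.49 to 0.12) for Acly and a log2 fold change of -0.14 (95% interval -0.37 to 0.10) for Fasn. With 1 library left out, these lay between -0.28 and -0.10 for Acly and between -0.23 and -0.04 for Fasn. Acaca, the acetyl-CoA carboxylase that makes malonyl-CoA, had 15.5 and 16.3 FPKM in B16F1-CXCL5 tumors, against 16.04, 15.5 and 15.2 FPKM in B16F1 tumors. Acss2, which makes acetyl-CoA from acetate, had 7.83 and 8.804 FPKM in B16F1-CXCL5 tumors, against 8.19, 7.97 and 7.76 FPKM in B16F1 tumors. The groups of both overlapped, and the 95% intervals of their log2 fold changes ran from -0.16 to 0.21 for Acaca and from -0.17 to 0.27 for Acss2.

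The desaturases and Elovl6 shape the fatty acids after synthesis. Scd2 was the most abundant of the 30 genes, and Scd1 is its neighbour on chromosome 19 (GRCm38, Scd2 from 44293674 to 44306864 on the plus strand and Scd1 from 44394455 to 44407879 on the minus strand). Both encode stearoyl-CoA desaturases. Scd2 had 436 and 470.3 FPKM in B16F1-CXCL5 tumors, against 435, 478 and 425 FPKM in B16F1 tumors. Scd1 had 95.7 and 103 FPKM in B16F1-CXCL5 tumors, against 99.6, 127 and 127 FPKM in B16F1 tumors. Scd2 overlapped between the groups, while for Scd1 the lowest B16F1 value lay between the B16F1-CXCL5 values. The ratio of Scd2 to Scd1 FPKM was 4.56 and 4.58 in the B16F1-CXCL5 libraries, against 4.36, 3.77 and 3.35 in the B16F1 libraries. The ratio was lowest in B16F1 library 3, where Scd3, a desaturase of sebaceous glands in mice, had 12.4 FPKM, against 2.68 and 5.14 FPKM in the B16F1-CXCL5 libraries and 2.47 and 3.02 FPKM in the other B16F1 libraries. Elovl6, which elongates palmitate, had 22.2 and 19.3 FPKM in B16F1-CXCL5 tumors, against 19.3, 19.4 and 30.03 FPKM in B16F1 tumors. It was high in B16F1 library 3 alone, and without that library its log2 fold change was 0.09 in place of -0.11. The summed FPKM of the 8 sebocyte markers was 31.0 and 43.8 in the B16F1-CXCL5 libraries, against 24.1, 29.3 and 81.8 in the B16F1 libraries, and that of the 12 adipocyte markers was 248 and 262 in the B16F1-CXCL5 libraries, against 213, 221 and 378 in the B16F1 libraries. Their part in the values of Scd1 and Elovl6 was not tested.

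Both exporters were higher on average in the B16F1-CXCL5 tumors, at low levels and without a call. Abca1, on chromosome 4 from 53030787 to 53159895 (GRCm38, minus strand), which loads cholesterol onto lipid-poor apolipoprotein, had 3.898 and 3.59 FPKM in B16F1-CXCL5 tumors, against 3.17, 1.99 and 3.401 FPKM in B16F1 tumors. Abcg1, which passes cholesterol to lipoprotein particles, had 2.23 and 1.87 FPKM in B16F1-CXCL5 tumors, against 1.83, 0.994 and 1.71 FPKM in B16F1 tumors. In both genes the 2 B16F1-CXCL5 values lay above all B16F1 values, and B16F1 library 2, the highest for the sterol enzymes, was the lowest. Abca1 had a log2 fold change of 0.32 (95% interval -0.15 to 0.79) and an adjusted p of 0.706, and Abcg1 had a log2 fold change of 0.29 (95% interval -0.18 to 0.77) and an adjusted p of 0.730. With a pseudocount of 0.1 in place of 1, the log2 fold change of Abcg1 was 0.45. Without B16F1 library 2 their log2 fold changes were 0.15 and 0.14, and at the same sum of melanocyte markers neither gene had groups that did not overlap. The summed FPKM of the 12 macrophage markers was 620 and 395 in the B16F1-CXCL5 libraries, against 495, 365 and 559 in the B16F1 libraries. Like both exporters, it was highest in B16F1-CXCL5 library 1 and lowest in B16F1 library 2. Unlike them, it was lower in B16F1-CXCL5 library 2 than in B16F1 libraries 1 and 3. No marker was listed at 0. The ratio of Abca1 to Csf1r, a receptor of macrophages, was 0.278 and 0.330 in the B16F1-CXCL5 libraries, against 0.280, 0.272 and 0.261 in the B16F1 libraries. That of Abcg1 to Csf1r was 0.159 and 0.172 in the B16F1-CXCL5 libraries, against 0.162, 0.1355 and 0.131 in the B16F1 libraries. The part of macrophages in the exporter values was not tested.

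**Figure D4:**
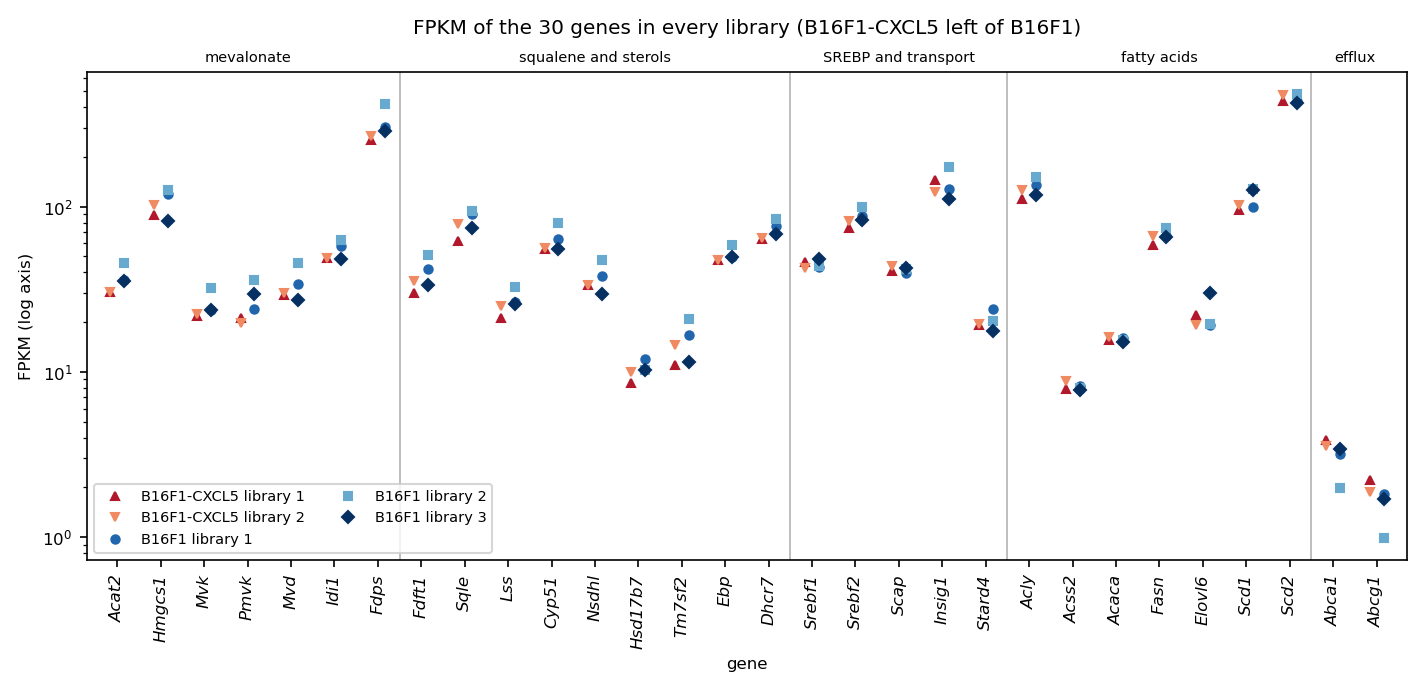
FPKM of the 30 genes (horizontal axis, by role) in every library on a log axis, with B16F1-CXCL5 libraries in red left of B16F1 libraries in blue. Levels span from Abcg1, with 2.23 and 1.87 FPKM in B16F1-CXCL5 tumors, to Scd2, with 436 and 470.3 FPKM, and in most sterol genes the square of B16F1 library 2 is the highest point.

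Other genes of the pathway were described from 4 lists, and 0 of their 38 tested genes rose or fell. Of 8 further sterol synthesis genes, 6 were negative, with a median log2 fold change of -0.06. The most abundant was Msmo1, a sterol C4 methyl oxidase listed under its older name Sc4mol, with 125 ± 2.02 FPKM in B16F1-CXCL5 and 147 ± 25.9 FPKM in B16F1 tumors. Aacs, which activates acetoacetate for synthesis, had 33.6 ± 4.13 FPKM in B16F1-CXCL5 and 39.4 ± 4.41 FPKM in B16F1 tumors. Of 7 further genes of SREBP processing, 4 were negative, with a median of -0.02. Among them Insig2, the second INSIG gene, had 57.99 ± 6.75 FPKM in B16F1-CXCL5 and 59.8 ± 14.4 FPKM in B16F1 tumors, Mbtps1, the site-1 protease that cuts SREBP, had 47.05 ± 1.74 FPKM in B16F1-CXCL5 and 44.2 ± 2.54 FPKM in B16F1 tumors, and Erlin1 had 11.2 ± 0.994 FPKM in B16F1-CXCL5 and 11.5 ± 0.505 FPKM in B16F1 tumors.

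Among 15 tested genes of lipid supply, 12 were negative, with a median of -0.15. Fabp5, a fatty acid-binding protein of keratinocytes and other cells, had 375 and 331 FPKM in B16F1-CXCL5 tumors, against 419.8, 536 and 635 FPKM in B16F1 tumors, the largest share of that list. Its groups did not overlap, and the limma adjusted p was 0.463. B16F1 library 3, with the highest sum of keratinocyte markers, had the most Fabp5. B16F1-CXCL5 library 2, with the next highest sum, had the least. The part of keratinocytes in the Fabp5 values was not tested. Elovl1, an elongase of very long fatty acids, had 46.4 ± 0.849 FPKM in B16F1-CXCL5 and 54.6 ± 3.39 FPKM in B16F1 tumors and an adjusted p of 0.499. Among 8 tested genes of sterol esters, efflux and LXR, 3 were negative, with a median of 0.07. Lpcat3, a phospholipid remodelling enzyme, had 52.6 ± 0.120 FPKM in B16F1-CXCL5 and 62.5 ± 5.82 FPKM in B16F1 tumors, Nr1h2, which encodes LXR-beta, had 44.8 ± 1.15 FPKM in B16F1-CXCL5 and 40.4 ± 4.03 FPKM in B16F1 tumors, and Npc2, a lysosomal sterol carrier, had 83.05 ± 2.63 FPKM in B16F1-CXCL5 and 85.3 ± 9.13 FPKM in B16F1 tumors.

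Some values rest on a division of fragments between genes that share sequence or overlap. Apart from Acat2, 8 of the 30 genes share over 3% of the 50-base windows of their annotated transcripts with another gene, at 30.4% for Acaca, 26.2% for Fdps, 17.7% for Idi1, 9.87% for Tm7sf2, 9.38% for Fdft1, 4.56% for Scd1, 3.98% for Elovl6 and 3.97% for Scd2. The other 21 genes share at most 2.17%. In 2 of the 30, a coding gene overlaps on the same strand, Gm43738 at Fdps and Vps51 at Tm7sf2. These are also the genes with which Fdps and Tm7sf2 share the most windows. In 6 of the 30, a coding gene lies on the other strand at the same place, among them Ctsb across Fdft1 and Akap9 across Cyp51, and whether strand was used in the quantification is not stated.

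The marker lists gave the background of cell types. Of 7 tested neutrophil markers, 5 rose, with S100a8 at 369 ± 18.4 FPKM in B16F1-CXCL5 and 8.73 ± 6.603 FPKM in B16F1 tumors. The other 5, Ngp, Ltf, Camp, Mpo and Elane, which developing neutrophils express, did not reach the filter. The part of neutrophils in the values of the 30 genes was not tested. In the lists of adipocyte (11 tested), sebocyte (6), keratinocyte (11), macrophage (12), melanocyte lineage (10) and skeletal muscle (8) markers, 0 rose and 0 fell. The most abundant melanocyte marker, Dct, had 3033 ± 156 FPKM in B16F1-CXCL5 and 3198 ± 504 FPKM in B16F1 tumors, and the most abundant keratinocyte marker, Krt10, had 142 ± 44.8 FPKM in B16F1-CXCL5 and 156 ± 93.7 FPKM in B16F1 tumors. The summed FPKM of the 11 keratinocyte markers found was 590 and 799 in the B16F1-CXCL5 libraries, against 527, 558 and 1409 in the B16F1 libraries. That of the 8 skeletal muscle markers was 622 and 1626 in the B16F1-CXCL5 libraries, against 705, 700 and 2170 in the B16F1 libraries.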

How the data were processed

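Poly(A) RNA of whole tumors was made into strand-specific libraries, with RNA integrity numbers of 8.7 to 9.5 per the labels' protocols. The authors deposited FPKM values in 1 table with a column per library, matched by title. Per the submitters' processing notes, Cufflinks 2.2.1, TopHat2 2.0.10, SAMtools 0.1.1.9, Bowtie 1.0.0 and FastQC 0.10.1 were used with GRCm38 (mm10). Annotation, strand setting and scaling were not stated.

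Genes with at least 1 FPKM in at least 2 of the 5 libraries (12533) were fitted on log2(FPKM + 1) with limma 3.58.1 (R 4.3.3), with an intensity trend and Benjamini-Hochberg adjustment over all of them at 0.05. That scale understates changes of low values. Errors are SD over libraries and 95% limma intervals. FPKM are not counts, so no count model was used. Fragments per library were estimated from the lowest steps of genes with 1 annotated transcript at an assumed fragment length of 200. Coordinates and transcripts are from GENCODE M21, promoters from RefSeq (GRCm38.p6).

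The 30 genes, lists and tests were chosen with earlier results of these data known. All 30 are named. Of each other pathway list, the called genes are named, or else the 2 of smallest p and the most abundant. One gene that this rule names is not reported here. Flg, a keratinocyte marker, was not analysed here. Alternatives covered the pseudocount, filter, scaling, trend, library weights, the replicate number as a block and each library left out.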

Additional observations from a re-analysis of the deposited data

How the results depend on the processing

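No gene of the 30 passed in any of the 16 alternatives, where their lowest adjusted p was 0.224, with the replicate number as a block. The replicate numbers are not said to pair libraries, so the block is not read as a paired design. Deviations of same-numbered libraries were correlated at -0.028 and -0.019. The deviations of the 2 B16F1-CXCL5 libraries from their mean mirror each other, so these correlations do not decide on pairing. No B16F1-CXCL5 library is numbered 3, so the block sets B16F1 library 3 apart. The log2 fold changes under the block equal those without that library, so the block is no separate check of them. Under the block 46 genes were called over the table, 0 of the 30. There 14 of the 30 had an unadjusted p under 0.05, against 8.24% of all genes. The count of called genes over the table was 17, but 8 when the pseudocount was 0.1, 31 with library weights, 39 without the trend, 7 among genes averaging at least 3 FPKM, and 2 to 34 with 1 library left out. The 9 genes whose B16F1-CXCL5 libraries both lay below were 4 at the same sum per library, 5 after quantile normalization, 2 at the same melanocyte marker sum and 9 to 20 with 1 library left out, where the share of all genes was 20.3% to 32.6% (25.1% beside the 20), against 15.6% with all libraries. The 2 genes that lay above were 1 among genes averaging at least 3 FPKM (where Abcg1 was not tested), 1 after quantile normalization, 0 at the same melanocyte marker sum and 2 to 5 with 1 library left out, where the share of all genes was 16.5% to 23.0% (20.0% beside the 5), against 10.8% with all libraries. Median of ratios scaling left both of these counts unchanged, at 9 and 2. The median log2 fold change of the 30 genes stayed negative in every alternative, from -0.27 to -0.09. Of 479 recomputed gene values, 457 kept their sign and 22 did not. Among the 479, the values under the block repeat those without B16F1 library 3. The 22 were in 9 genes, whose values in the main test ran from -0.16 (Nsdhl) to 0.05 (Acss2). Srebf1 was 0.03 at the same sum per library, after quantile normalization and with the replicate block, and 0.04 at the same melanocyte marker sum. Insig1 was 0.03 at the same sum per library and 0.04 under quantile normalization and the melanocyte marker sum. With the replicate block, as without B16F1 library 3, Elovl6 was 0.09 and Scd2 -0.01. With 1 library left out, Nsdhl lay between -0.33 and 0.01, Srebf1 between -0.08 and 0.04, Scap between -0.03 (and -0.0039) and 0.07, Insig1 between -0.16 and 0.16, Stard4 between -0.19 and 0.03, Acss2 between -0.02 and 0.13, Acaca between -0.01 and 0.06, Elovl6 between -0.21 and 0.09 and Scd2 between -0.03 and 0.08. Without 1 B16F1-CXCL5 library, the lone remaining one is assumed to vary like the B16F1 libraries. The cause of these shifts was not tested. The number of libraries, 2 and 3, limits the precision, and fragments per gene were not used here.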
